A study of Oryza sativa Indica Group with 17 samples.

Results

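LOC4328533 and LOC4328539 are genes that lie close to each other on chromosome 2, and their probes all gave low signals in the fast neutron line F1856. They were chosen by their values in F1856, as the genes of this chromosome with every probe flagged there, and are 2 of the 17903 nuclear genes that could be measured. Genomic DNA from leaves of plants of 45 days was hybridized to the Affymetrix Rice GeneChip, 1 array for each of 16 mutant lines and 1 for wild type IR64, an indica rice variety. F1856 and F2045 came from fast neutron treatment of IR64, G282, G650, G6485, G6489, G6603, G6686, G6728, G7534, G9799 and G6989 from gamma rays, and D256, D1137 and D2943 from diepoxybutane (DEB). For the dwarf line d1 the sample labels give DEB and the study's methods give gamma rays. All lines were advanced to the M4 or M5 generation by single seed descent before DNA extraction. The wild type array, called the wild type check, was not mutagenized, and which wild type signals served as its own reference is unclear from the labels.

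Fast neutrons break both strands of DNA, and repair of the breaks can leave a stretch of the chromosome missing, with the genes it held. A deleted gene offers no target for the probes of its probe set, so the signals of its probes tend to drop together relative to wild type. Not every probe need be flagged: in the paper, the deleted gene RGA1 of line d1 had most but not all of its probes flagged. A base change or a small deletion touches few probes, and relatives of a deleted gene elsewhere in the genome can still bind to its probes. F1856 shows the spotted leaf phenotype spl1, in which lesions form on leaves without a pathogen, and it had been assigned to the spl1 locus, on chromosome 12, by complementation tests before the arrays were run. Neither gene of the pair has a symbol beyond its locus number in the tables used here, so no function is given for either.

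The value of a probe set on an array is the deposited share, from 0 to 1, of its perfect match probes with a flag for a signal below wild type. Each member is measured by 1 probe set of 11 probes (Os.16786.1.S1_at for LOC4328533 and Os.52523.1.S1_at for LOC4328539). The threshold for a call was a share of 0.5, and a gene with more than 1 probe set took the median of its sets. There is no replicate array of any line among those used, so no test between lines was possible and no spread between replicates can be given. Over all probe sets the mean share was 0.00684 in F1856, the lowest of the 17 arrays, with 0.176 in G6989, the highest, and 0.0745 in the wild type check.

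LOC4328533 had 11 of 11 probes flagged in F1856 (share 1, 95% exact Clopper-Pearson interval 0.715 to 1), against 1 of 11 in the wild type check (share 0.0909). LOC4328539 also had 11 of 11 probes flagged in F1856, against 0 of 11 in the wild type check (share 0, interval 0 to 0.285). These intervals cover counting error only, and probes of 1 set can overlap in sequence. The values in F1856 are those by which the genes were chosen. Of all measured nuclear genes, 12 were called in F1856 (0.0670%), against 1 in the wild type check (0.00559%), and 6 of the 12 had every probe flagged (0.0335%). Besides the pair, the genes at this limit were LOC4351919, LOC4351922, LOC4351932 and LOC4351944, all on chromosome 12. Just outside it were LOC4351923 at 0.909, LOC4351938 and LOC4351940 at 0.727, CYP71P1 (LOC4351945) at 0.682 and LOC4351925 at 0.636, also on chromosome 12. The pair were the 2 called genes of chromosome 2 in F1856, among 2125 measured there. This count covers genes with a paired probe set only. The paper predicts more deleted gene models in F1856 on chromosomes 2 and 12, and a few on other chromosomes, with its own annotation and log ratio cutoff. Whether that cutoff is the one behind the values used here is unclear.

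Along the gene order of chromosome 2 the change from no flagged probe to all probes flagged fell between adjacent genes on both sides. LOC4328532, the gene next to LOC4328533, has 2 probe sets, and both had a share of 0 in F1856, against 0.0909 and 0.182 in the wild type check. No gene model lies between them in the annotation. On the other side LOC4328540 follows LOC4328539 directly, with a share of 0 in F1856 and 0.182 in the wild type check. The next measured genes outward, LOC4328531, LOC4328528, LOC4328527, LOC4328526 on one side and LOC4328541, LOC4328545, LOC4328546, LOC4328548 on the other, had a share of 0 in F1856.

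Of the 40 measured genes that flank the pair (20 on each side), none was called in F1856, and 39 had a share of 0 there. At 0 in the wild type check were 14 of them, and the highest reached 0.273. The exception in F1856 was CLPB3 (LOC4328515), which encodes a Clp-type chaperone, with a share of 0.0909 in F1856 and 0 in the wild type check. Among the flanking genes with a known role, SPS2 (LOC4328527), a solanesyl diphosphate synthase gene, had a share of 0 in F1856 and 0.0909 in the wild type check. CAD2 (LOC4328552, GH2), whose enzyme makes the alcohols from which lignin is built, had 0 in F1856 and 0.182 in the wild type check. The response regulator gene RR24 (LOC4328516) had 0 in F1856 and 0.0909 in the wild type check, and the transcription factor gene WRKY71 (LOC4328512) had 0 in F1856 and 0.136 in the wild type check. Genes at 0 made up 97.5% of the flanking genes in F1856 and 95.9% of all measured nuclear genes, so the flanks were close to the whole array in this respect.

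**Figure D1:**
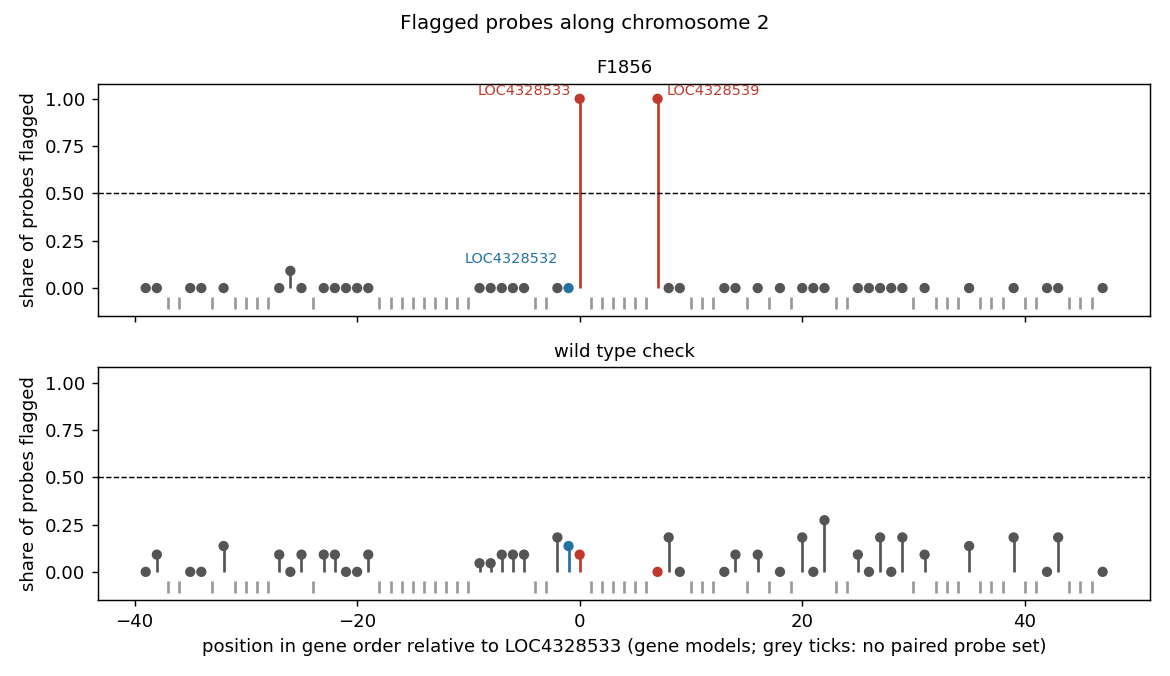
Share of flagged probes (vertical axis, 0 to 1) for each measured gene in the order of chromosome 2, counted in gene models from LOC4328533, in F1856 (top) and in the wild type check (bottom); red points are the pair, blue is LOC4328532, grey ticks are gene models with no paired probe set and the dashed line is the threshold of 0.5. In F1856 the pair stands at 1 with genes at 0 on both sides, and in the wild type check no gene shown passes 0.273.

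Between LOC4328533 and LOC4328539 the annotation places 6 gene models, none of which has a paired probe set. These are the protein-coding genes LOC4328535, LOC4328536 and LOC107276444, the pseudogenes LOC9270087 and LOC9272522, and the long noncoding RNA gene LOC136355054. Their signals in F1856 are not analysed here, so LOC4328533 and LOC4328539 are next to each other among measured genes only. Over the stretch with its flanks, 42 of 87 gene models were measured. No length in bases is given for the stretch, since the annotation is of japonica rice and the lines are of an indica variety. The gene order used here comes from the same japonica annotation and was not checked in IR64.

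In the arrays that played no part in the choice of the genes, the pair was mostly free of flagged probes. LOC4328533 had a share of 0 in 14 of the other 16 arrays. The exceptions were G6989 at 0.545 (6 of 11 probes, interval 0.234 to 0.833) and the wild type check at 0.0909. LOC4328539 had a share of 0 in 13 of the other 16 arrays and of 0.182 in G282, G6603 and G6989. Both genes were at 0 in 12 of the 16 arrays. For comparison, the median measured gene was at 0 in 10 of these arrays, and 14.1% of genes were at 0 in 14 or more of them, 24.1% in 13 or more.

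Of the other 16 arrays, LOC4328533 was called in G6989 and LOC4328539 in none. Called genes made up 0.0726% of those measured in d1, 0.0112% in D256, 1.69% in D1137, 0.0168% in D2943, 1.32% in G282, 0.0559% in G650, 0% in G6485, 0.0279% in G6489, 0.195% in G6603, 0.0670% in G6686, 0.0112% in G6728, 0.0838% in G7534, 0.0614% in G9799 and 0.0670% in F2045. G6989 is the gamma ray line with the highest mean share of all arrays. Neither G6989 nor D1137 is among the lines for which the paper tabulates deletions. Nuclear genes called in G6989 numbered 555, or 3.10% of those measured, against 1 gene (0.00559%) in the wild type check. Of the 40 flanking genes, LOC4328559 was called in G6989, at 0.545, and their mean share was 0.163 in G6989 and 0.00227 in F1856, against 0.0807 in the wild type check. The mean share of all measured nuclear genes was 0.216 in G6989, 0.00394 in F1856 and 0.0815 in the wild type check. The part of this level of the whole array in the call of LOC4328533 in G6989 was not tested. With the array of G6989 left out, neither gene of the pair was called outside F1856.

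The 3 other radiation lines with the spl1 phenotype, G650, G9799 and F2045, had a share of 0 at both genes of the pair, as did the DEB lines D1137 and D2943, which the methods also list as spl1 mutants. Of the 10 genes of chromosome 12 called in F1856, 9 were called in at least 1 of G650, G9799 and F2045, and 4 in all of them. CYP71P1 encodes a P450 enzyme of serotonin synthesis, tryptamine 5-hydroxylase, and carries the spl1 name Sekiguchi lesion (SL). Its share was 0.682 in F1856, 0.682 in G650 and 0.636 in both G9799 and F2045, against 0.136 in the wild type check. The exception among the 10 was LOC4351918, called by the median of its 2 probe sets in F1856 alone. That median was 0.591 in F1856, 0.455 in G9799 and 0 in G650, F2045 and the wild type check. Counted by single probe set, every chromosome 12 set called in F1856 was also called in at least 1 of G650, G9799 and F2045. F2045, the other fast neutron line, had no flagged probe at either gene of the pair, while it shared 8 of the 10 called chromosome 12 genes with F1856.

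LOC4328532 was high in other lines than the pair. It was called in d1 at 0.545, in G282 at 0.682 and in G650 at 0.591, where LOC4328533 had a share of 0 in all 3 lines. Its share was 0 in F1856, D256, D1137, D2943, G6485, G6489, G6686, G6728 and G9799, 0.0455 in G6603, G7534 and F2045, 0.227 in G6989 and 0.136 in the wild type check. The set Os.54895.1.S1_at had 8 of 11 probes flagged in d1, 9 in G282 and 8 in G650, and the set Os.54895.1.S1_x_at had 4, 6 and 5, so that by Os.54895.1.S1_x_at alone the gene would be called in G282 and in neither d1 nor G650. The suffix _x_at marks sets whose probes can bind to other sequences too. On the far side of LOC4328532, LOC4328531 had a share of 0 in these 3 lines, as did LOC4328533 on the near side.

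**Figure D2:**
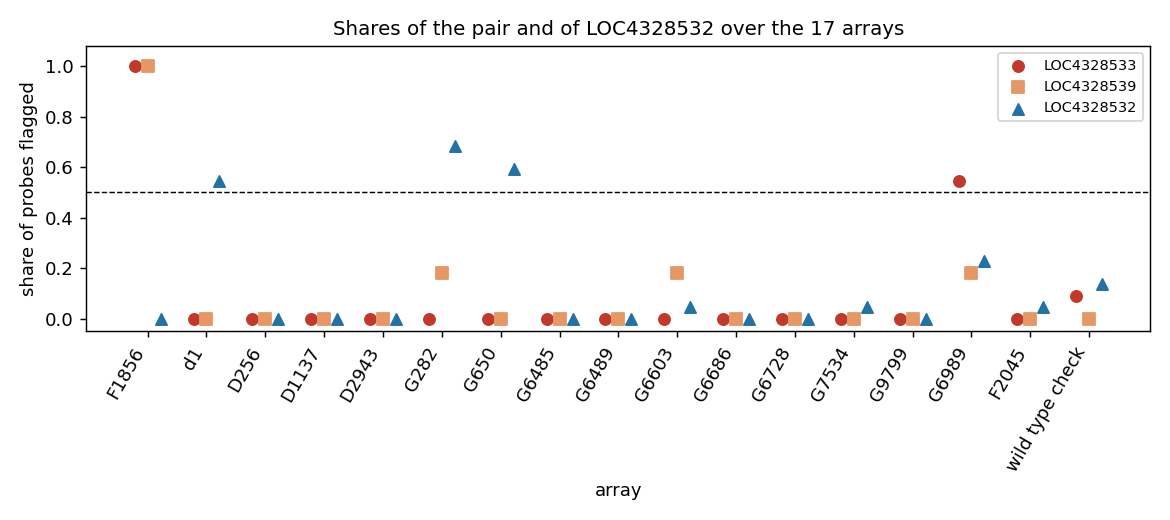
Share of flagged probes (vertical axis, 0 to 1) of LOC4328533, LOC4328539 and LOC4328532 (median of its 2 probe sets) in each of the 17 arrays, 1 array a line, with the threshold of 0.5 dashed. The pair reaches 1 in F1856 while LOC4328532 is at 0 there, and LOC4328532 passes 0.5 in d1, G282 and G650 while LOC4328533 is at 0 in those lines.

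The genes most like the pair over the 17 arrays were sought by the mean absolute difference in share from the mean of the pair. The pair differed from each other by 0.0481 on this measure. The nearest other nuclear genes were LOC4349349 on chromosome 10 (0.0561) and LOC4327516, LOC4332574, LOC4343215 and LOC4343722 (0.0615 each). Their shares in F1856 were 0.0909 for LOC4349349 and 0 for the other 4, so the likeness came from the other arrays and none of them shared the flagging in F1856. A gene with no flagged probe in any array would have differed from the pair by 0.0936.

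Counted by probe set, with or without a paired gene, 48 of 57194 passed the threshold in F1856 (0.0839%), against 11 (0.0192%) in the wild type check. In the other spl1 radiation lines 0.477% did in G650, 0.0944% in G9799 and 0.192% in F2045. Of the 48, 2 are those of the pair, 13 are paired with 1 gene of chromosome 12, 3 with several genes and 30 with none. Of these sets 39 were called in at least 1 of G650, G9799 and F2045, and 9 in none of them. These 9 are the sets of the pair and 7 that have no paired gene. Of the 7, Os.49058.1.A1_at and OsAffx.19699.1.S1_at had a share of 0.545 in F1856 and 0.455 in G9799, close to the threshold in both.

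The remaining 5 sets had shares of at most 0.0909 in G650, G9799 and F2045. Os.24882.1.S1_s_at had a share of 1 in F1856, 0 in the 15 other lines and 0.0909 in the wild type check. OsAffx.24172.1.S1_at had 0.727 in F1856, 0.182 in G6989 and 0.182 in the wild type check, and OsAffx.24172.2.S1_at had 0.727 in F1856 and 0.0909 in d1, G6989 and the wild type check, with 0 elsewhere for both. OsAffx.24173.1.S1_at had 0.636 in F1856, 0.0909 in d1, G282 and G650 and 0.182 in the wild type check, and OsAffx.11952.1.S1_at had 0.727 in F1856, at most 0.273 in any other line and 0 in the wild type check. By the mean absolute difference from the pair, Os.24882.1.S1_s_at (0.0348) was nearest of all other sets, followed by OsAffx.24172.1.S1_at (0.0455), and by OsAffx.11952.1.S1_at and OsAffx.24172.2.S1_at (0.0508 each). OsAffx.24173.1.S1_at stood farther off at 0.0668, with 21 sets nearer, 17 of them not called in F1856. These sets were singled out after their values were seen. The measure includes F1856, the array by which both the pair and these sets were chosen, so it favours sets called there. None has a paired gene in the tables used, so their place on the chromosomes is not given here.

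**Figure D3:**
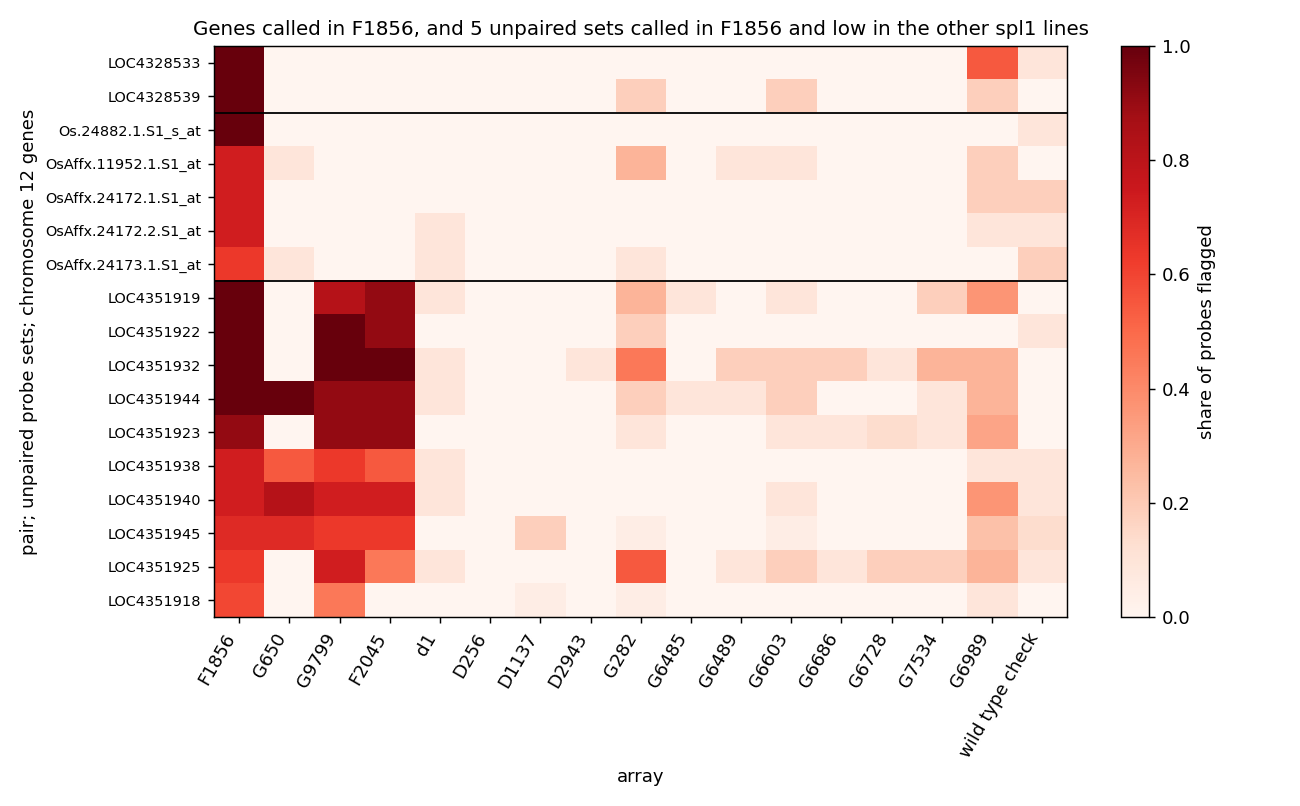
Share of flagged probes (colour, 0 to 1) in each of the 17 arrays (columns) for the pair (top block), 5 probe sets with no paired gene (middle block) and the 10 genes of chromosome 12 called in F1856 (bottom block). The top and middle blocks are high in F1856 and at most 0.0909 in G650, G9799 and F2045, while 9 of the 10 genes of the bottom block pass 0.5 in at least 1 of these lines.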

How the data were processed

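Genomic DNA of 16 lines and of wild type was hybridized to 1 array each. The deposited values are a fraction per probe set. Per the methods, the authors scanned every array 2 times and used mean intensities, brought perfect match intensities (log2, background not corrected) to the level of the wild type mean, and flagged probes by the log2 ratio of mutant over wild type. Which log ratio served for this table was not found in the paper or labels. affy is named in the submitters' processing notes. Probe intensities were not analysed here.

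Python 3.11.15 with numpy 2.4.6, pandas 2.3.3, scipy 1.17.1 and matplotlib 3.10.9 was used. Of the sets, 22436 were paired with 1 gene, 95 with several and 34663 with none. Sets with 1 gene entered, and a gene took their median. Gene names and order came from the RefSeq table of ASM3414082v1. Its start positions served to order the genes, and no coordinates are given here. Calls needed a share of 0.5 or more, a proportion the methods use. With 1 array a line no test was run, and the precision is that of 11 probes. Calling was tested on simulated data, with planted genes at a share of 1 and independent probes elsewhere. Such data check the code and cannot show how calls behave on real arrays, where probes can overlap. Alternatives were thresholds of 0.4 and 0.6, subtraction of the array median or of the wild type check, the highest share over sets, sets of several genes added, and 10 or 40 flanking genes a side.

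Named genes are the pair, measured genes within 5 of it, genes called in F1856 or in the flanks, the next lower shares, the 5 most alike and CYP71P1. CLPB3, CAD2, RR24 and WRKY71 were added after their values were seen. The members and lists were chosen with earlier results of these data known.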

Additional observations from a re-analysis of the deposited data

How the results depend on the processing

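Of 41 values under the alternatives, 35 stayed close to the reported count or within the interval of the reported share, and 6 did not. Some of the 35 could not move. The median share of F1856 was 0, so its subtraction changed nothing there, and each gene of the pair has 1 probe set. The pair was also chosen by its shares in F1856. The shares of the pair in F1856 lay between 0.909 and 1, and the called probe sets of F1856 ranged from 44 to 54. The called genes of the stretch numbered 2 under every alternative tried. These 2 are the pair, which passes every threshold tried by the way it was chosen. What could vary was the flanks, where no gene was called in F1856 under any alternative. The single call of the pair outside F1856, LOC4328533 in G6989, gave a count of 0 with a threshold of 0.6 or more, with the array median subtracted, with the wild type check subtracted, and with the array of G6989 left out (chosen after seeing the data). The calls at LOC4328532 numbered 1 in place of 3 with a threshold of 0.6 or more and with the wild type check subtracted. The sets called in F1856 and in no other spl1 radiation line numbered 8 to 9. No paired analysis was possible because there is a single array for every line used here. The shares rest on 11 probes a set.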

Other observations

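Of the 5 unpaired sets called in F1856 and at most 0.0909 in the other spl1 radiation lines, 3 carry the name numbers 24172 and 24173. Sets whose names begin with OsAffx are numbered, and where such sets are paired with 1 gene (446 sets with 403 different numbers), 64 neighbouring numbers lie at most 10 apart. Of these 64, 53 (82.8%) are on the same chromosome and 43 (67.2%) within 50 gene models of each other, given as a description of the names only. OsAffx.11954.1.S1_s_at is paired with LOC4328545, which lies 6 gene models past LOC4328539, and had a share of 0 in F1856 and in the wild type check. OsAffx.11952.1.S1_at, the next lower number among the values, had 0.727 in F1856 and 0 in the wild type check. The sets numbered 11946 to 11949 and 11955 to 11958 all had a share of 0 in F1856.

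In the other stretch of numbers, OsAffx.24166.1.S1_at is paired with WRKY71 (LOC4328512) on chromosome 2 and had a share of 0 in F1856 and 0.182 in the wild type check. The called sets of F1856 are those numbered 24172 and 24173. The sets numbered 24169 and 24170 had 0 in F1856, the set numbered 24171 had 0.0909, and those numbered 24174 to 24178 had 0. Where the unpaired sets lie on the chromosomes was not tested, and Os.24882.1.S1_s_at has a name from another numbering.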
